A study of Mus musculus with 12 samples.

Results

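Adult neurogenesis was followed in bulk mouse hippocampus through 8 genes that mark dividing progenitors and young neurons: Eomes, Mki67, Top2a, Neurod1, Dcx, Sox11, Igfbpl1 and Calb2. They were taken by name from 33250 gene symbols, and all 8 were among the 19325 genes that passed the filter on low counts and were tested. The animals were 12 male mice, adult per the series title, of which 6 were wild type (WT) and 6 carried a conditional knockout (cKO) of the miR379-410 microRNA cluster. In cKO mice Cre recombinase removes the cluster in cells with a history of Emx1 expression, a homeobox gene of the dorsal forebrain, and the interneurons, microglia and vessel cells of the tissue keep it. The sources used here do not give age in weeks, strain or the alleles that the WT animals carry. The question is whether expression in the hippocampus, here in its neurogenic lineage, differs once the cluster is lost.

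New granule neurons are made throughout life in the subgranular zone of the dentate gyrus. Radial glia-like stem cells divide slowly and give rise to intermediate progenitors that express Eomes (also called Tbr2), which multiply and become neuroblasts. Neuroblasts switch on Neurod1, Sox11, Igfbpl1 and Dcx, pass through a phase with calretinin (Calb2), and mature into granule neurons that keep Prox1 and gain calbindin. The stem cells of the dentate gyrus descend from Emx1-positive progenitors, so the lineage lies within the reach of the Cre driver. In bulk RNA, fewer cells of a type and less RNA per cell cannot be told apart.

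MicroRNAs pair through a seed, bases 2 to 8, with sites in the 3′ untranslated region (UTR) of their targets. The RefSeq table (GRCm38.p6) held 69 mature miRNAs of 37 genes of the cluster, with 63 different seeds. Dcx had by far the most sites among the 8 genes, 34 matches to 24 seeds in a 3′ UTR of 7709 bases. That is 4.41 sites per kilobase, beside 4.17 per kilobase over the 15274 annotated UTRs searched, so the number goes with the length of the UTR. The Dcx sites below are shown because a single site matches miR-134-5p, the best known miRNA of the cluster in neurons, and because miR-323-3p and miR-543-3p each match 3 times, the highest number for any of the 63 seeds in Dcx. Each miRNA is followed by sites of the 3′ UTR, 5′ to 3′, and the capitals mark the seed in the miRNA and its match in the site.
miR-134-5p: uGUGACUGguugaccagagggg
Dcx site for miR-134-5p: ctggttctacccctgttCAGTCACa
miR-323-3p: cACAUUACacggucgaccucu
Dcx site 1 for miR-323-3p: gccattttgtgaacggtGTAATGTg
Dcx site 2 for miR-323-3p: catatatccaatgttttGTAATGTa
miR-543-3p: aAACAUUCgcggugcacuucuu
Dcx site 1 for miR-543-3p: agcttctgtgatggtgaGAATGTTg
Dcx site 2 for miR-543-3p: ctgtccttacagctcatGAATGTTt
The miR-134-5p site lies in the 3′ UTR of Dcx at chrX:143857940-143857964 (GRCm38, minus strand), and its 7-base match CAGTCAC was present in 12% of all UTRs searched. The 2 miR-323-3p sites shown lie at chrX:143857750-143857774 and chrX:143857121-143857145, and GTAATGT was present in 9.82% of UTRs. The 2 miR-543-3p sites shown lie at chrX:143859160-143859184 and chrX:143857834-143857858, and GAATGTT was present in 14.3% of UTRs.

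The other genes held fewer matches, in shorter UTRs. Sox11 had 22 matches in 6957 bases, Igfbpl1 had 11 in 1921, Neurod1 had 5 in 1443, Eomes had 4 in 1120, Top2a had 3 in 511 and Calb2 had 1 in 546. Per kilobase, Top2a with 5.87 and Igfbpl1 with 5.73 were above Dcx. The rest ran from 1.83 (Calb2) to 3.57 (Eomes). Mki67, the proliferation gene with the lowest cKO values relative to WT, had 1 match in 305 bases, to miR-300-5p, shown here beside its miRNA.
miR-300-5p: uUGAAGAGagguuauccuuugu
Mki67 site for miR-300-5p: gctttcctggtcatactCTCTTCAg
This site lies at chr7:135689902-135689926 (GRCm38, minus strand), and its match CTCTTCA was present in 16.7% of UTRs. A match is a description of the sequence, and 89.3% of all UTRs held at least 1 match to some seed of the cluster.

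Library totals lay between 42360624 and 51095816 counts. B830012L14Rik, a long non-coding RNA gene just upstream of the cluster, was read beside the genotype labels. It had the smallest p of all genes tested between the genotypes (edgeR adjusted p = 0.0343), so it is no independent check of them. Its level was 0.310 to 0.865 CPM in WT (counts scaled to a common library total with TMM factors). In cKO the median was 18.6 CPM, but the library labelled cKO 1 was at 0.788 CPM. Emx1 was likewise at 9.14 CPM in that library, within the WT range of 8.38 to 9.60 CPM. Mirg, a transcript of the cluster, read 28.4 to 34.1 CPM in WT and 23.6 to 46.4 CPM in cKO. Its mean was not lower in cKO, with a log2 fold change of 0.15 ± 0.12 (SE, edgeR adjusted p = 0.738). The differences of the 8 genes are therefore also given without the library labelled cKO 1. Choroid plexus markers varied widely, with a summed level of 253 to 11654 CPM in WT and 179 to 7951 CPM in cKO, and were lowest in WT 2, WT 3 and cKO 4. All 15 of these markers had a log2 fold change above 0, with 0 called, and 10 of 15 did without these 3 libraries.

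None of the 8 genes differed between genotypes at an adjusted p of 0.05 (edgeR quasi-likelihood test, adjusted over all genes tested), against a background of 2 of 19325 genes, or 0.0103%. Dcx, Neurod1, Igfbpl1, Mki67 and Top2a had lower means in cKO and Sox11, Eomes and Calb2 had higher means. Of all genes tested 46.6% had a log2 fold change below 0, the background for every count of higher and lower genes in a list. The median log2 fold change of the 8 was -0.13, beside 0.01 over all genes tested, and it moved to -0.04 without cKO 4, -0.07 without WT 1, -0.20 without cKO 3 and -0.24 without cKO 5. At an unadjusted p under 0.05 there were 2 of 8, Mki67 and Dcx, both lower in cKO, where 6.34% of all genes tested were lower, 3.2% were higher and 9.54% differed in either direction at that level. Without the library labelled cKO 1 the count of adjusted calls was again 0, with 1 gene (Mki67) at an unadjusted p under 0.05. Over all genes tested in that set, 6 were called and 2381 of 19457 had an unadjusted p under 0.05. When the libraries with the least choroid plexus signal (WT 2, WT 3 and cKO 4) were left out, neither Mki67 nor Dcx was under that level, and the 1 gene that was, Sox11, was higher in cKO. Over all genes, 1457 of 19591 were under that level without these libraries. With WT 4, WT 5 or cKO 2 left out there were 0 of 8, beside 1468 of 19469, 1257 of 19457 and 1771 of 19487 genes tested. The ranges of the genotypes overlapped for each of the 8 genes, and the share of all genes tested with such an overlap was not counted.

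**Figure D1:**
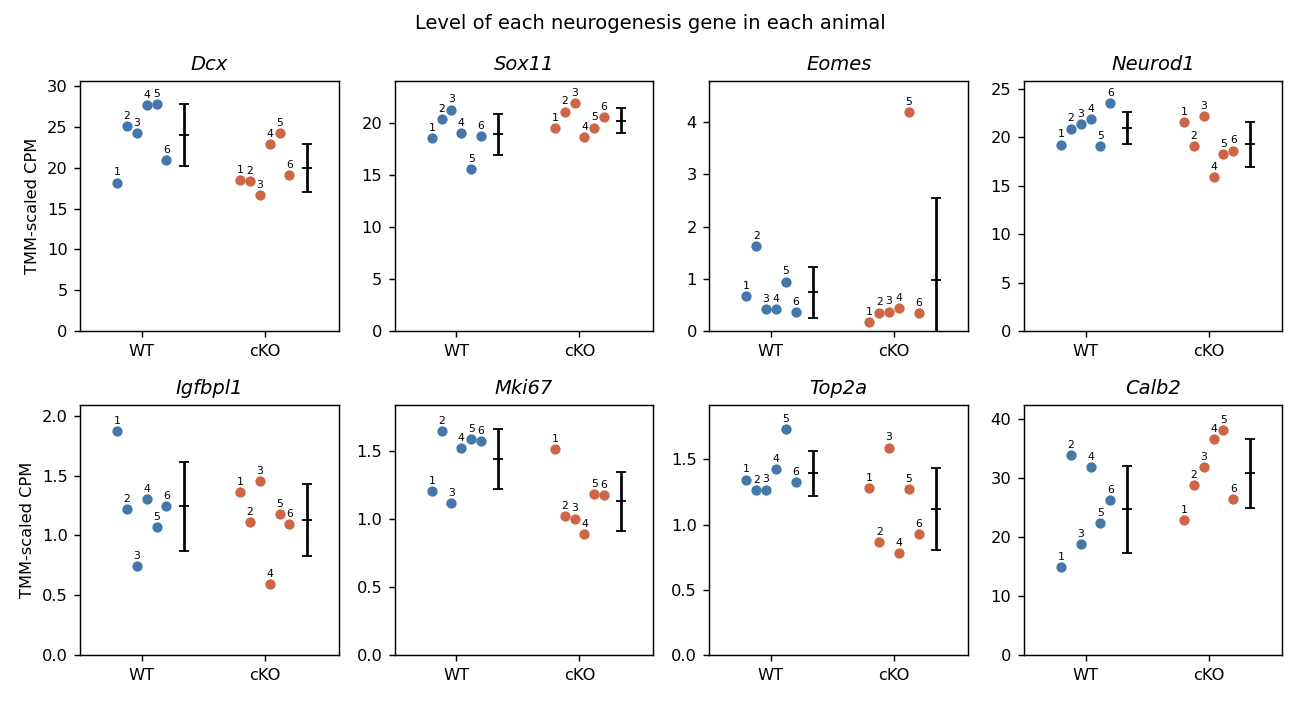
TMM-scaled CPM of the 8 genes in each animal, with the animal number above each point and the mean ± SD (n = 6 each) at the right of each group (the SD of Eomes in cKO runs below 0 and is drawn to the axis). The cKO points of Dcx and Mki67 lie at or below the WT median, and the library labelled cKO 5 stands alone for Eomes at 4.19 CPM.

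Levels differed widely between the genes. Per kilobase of the longest coding transcript, the mean WT level was 17.3 ± 5.18 CPM for Calb2, 7.69 ± 0.606 for Neurod1, 2.64 ± 0.419 for Dcx and 2.27 ± 0.235 for Sox11 (SD, n = 6). It was 0.434 ± 0.129 for Igfbpl1, 0.267 ± 0.0335 for Top2a, 0.208 ± 0.136 for Eomes and 0.143 ± 0.0222 CPM per kilobase for Mki67. Dcx and Sox11 did not differ beyond their spread, nor did Eomes from Top2a or Mki67. The progenitor and proliferation genes and Igfbpl1, a gene of neuroblasts, thus formed the low end of this order, and their counts were small: 8 to 188 per library for Eomes, 42 to 77 for Mki67, 37 to 84 for Top2a and 28 to 92 for Igfbpl1. Dcx, Sox11, Neurod1 and Calb2 had between 734 and 1737 counts in every library.

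Intermediate progenitors were read through Eomes, a T-box factor (chromosome 9 from 118478212 to 118486132, GRCm38, plus strand). The lowest, median and highest levels were 0.367 (WT 6), 0.544 and 1.62 CPM (WT 2) in WT. In cKO they were 0.170 (cKO 1), 0.364 and 4.19 CPM (cKO 5). The next cKO library below cKO 5 was at 0.443 CPM, and the other 5 cKO libraries lay below the WT median, so the direction of the genotype difference rested on this library. With all 12 libraries the log2 fold change was 0.40 ± 0.72 (SE, edgeR adjusted p = 0.909), and without cKO 5 it was -1.12 ± 0.41 (edgeR adjusted p = 0.475, unadjusted p = 0.0176). Without cKO 1 it was 0.61 ± 0.71 (edgeR adjusted p = 0.815), without WT 2, WT 4 or WT 6 it was 0.77, 0.27 or 0.25, and without both cKO 1 and cKO 5 it was -0.95 ± 0.42 (edgeR adjusted p = 0.424).

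The genes whose levels followed Eomes most closely over the 12 animals, among 15545 tested genes with a mean of at least 1 CPM, were Doc2g (Pearson r = 0.918, Spearman rho = 0.699), Th (r = 0.881, rho = 0.664) and Sp8 (r = 0.874, rho = 0.748). Outside the dentate gyrus Eomes also marks mitral and tufted neurons of the olfactory bulb, where Th, the rate-limiting enzyme of dopamine synthesis, and Sp8, a zinc finger factor, mark periglomerular interneurons. A list of 6 olfactory bulb markers was written after these values were seen: Tbx21 and Cdhr1 of mitral and tufted cells, Doc2g, Th, Sp8 and Scgn. Doc2g, Th and Sp8 are the genes closest to Eomes above, so their high level in the library highest for Eomes follows from that choice. Tbx21, Cdhr1 and Scgn, not chosen in that way, were also highest in the library labelled cKO 5. None of the 6 was at 0 in any library. Their summed level was 60.5 CPM in cKO 5, 29.6 CPM in WT 2, which was also the second highest for Eomes, and 14.1 to 18.4 CPM in the other 10 libraries. Tbx21, a factor of these projection neurons, was at 2.63 CPM in cKO 5, 0.597 CPM in WT 2 and 0.0219 to 0.212 CPM elsewhere, and Cdhr1, their cadherin-related receptor, was at 37.0, 17 and 8.57 to 11.1 CPM. The part of olfactory tissue in the Eomes values was not tested.

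**Figure D2:**
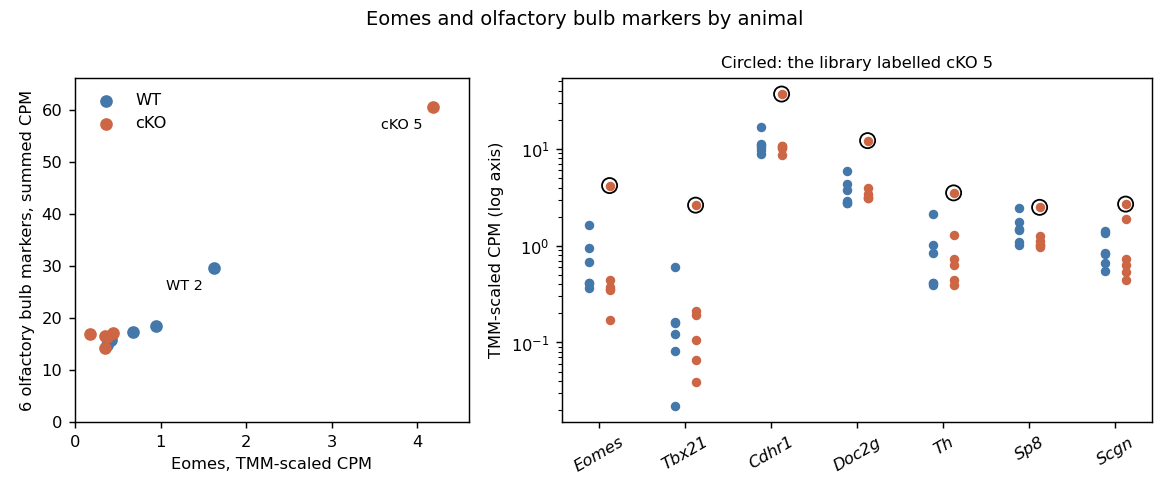
Left, Eomes against the summed level of 6 olfactory bulb markers, both in TMM-scaled CPM, 1 point per animal; right, CPM of Eomes and of each marker in every animal on a log axis, with the library labelled cKO 5 circled. That library is the highest for Eomes and for all 6 markers, and WT 2 comes next in both measures. Doc2g, Th and Sp8 are the genes closest to Eomes in these animals, so their part in this pattern follows from that choice.

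The other 3 intermediate progenitor genes tested did not pass. Insm1, a zinc finger factor of neurogenic divisions, had a mean of 5.16 CPM in WT against 5.41 CPM in cKO animals, with a log2 fold change of 0.07 ± 0.07 (SE). Neurog2, a proneural factor, had 0.06 ± 0.22 and Neurod4, a related factor, -0.05 ± 0.21. Neurog2 and Neurod4 had means under 1 CPM, and Tfap2c did not pass the filter on low counts and was not tested. Like Eomes, Tfap2c was highest in the library labelled cKO 5, with 37 counts or 0.824 CPM. Its cKO median was 0.117 CPM, and no WT library exceeded 0.167 CPM. The source of the Tfap2c value in cKO 5 was not tested. Of the 4 genes of this list that were tested, 0 were called.

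Proliferation was read through Mki67, which encodes the Ki-67 antigen of cycling cells (chromosome 7 from 135689784 to 135716361, minus strand). The lowest, median and highest levels were 1.12 (WT 3), 1.55 and 1.65 CPM (WT 2) in WT. In cKO they were 0.887 (cKO 4), 1.10 and 1.51 CPM (cKO 1). In all, 4 WT libraries lay above every cKO library, and the highest cKO library was the one labelled cKO 1. The mean was 0.784 of the WT mean, with a log2 fold change of -0.35 ± 0.15 (SE) that did not pass (edgeR adjusted p = 0.481, unadjusted p = 0.0318). With the library labelled cKO 1 left out it was -0.46 ± 0.14 (edgeR adjusted p = 0.164). Counting noise alone gives a coefficient of variation of 12.8% at these counts, beside 15.5% among WT and 19.3% among cKO animals.

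Top2a, the topoisomerase that untangles sister chromatids (chromosome 11 from 98992943 to 99024189, minus strand), had the same direction. The lowest, median and highest levels were 1.27 (WT 2), 1.34 and 1.73 CPM (WT 5) in WT. In cKO they were 0.781 (cKO 4), 1.10 and 1.59 CPM (cKO 3). Of the cKO libraries 3 lay below every WT library, and cKO 3 was above 5 of the WT libraries. The log2 fold change was -0.32 ± 0.17 (SE, edgeR adjusted p = 0.593), and -0.37 ± 0.18 without cKO 1 (edgeR adjusted p = 0.455).

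The wider proliferation list held differences of both signs. Of 30 genes, 28 were tested, 13 were higher and 15 lower in cKO, 0 were called and the median log2 fold change was -0.03. The balance turned to 16 higher and 12 lower without cKO 4 (median 0.03) and, with the same counts, without WT 2, WT 3 and cKO 4 (median 0.04), and it was 8 higher and 20 lower without cKO 1 (median -0.06). At an unadjusted p under 0.05, a level that 9.54% of all genes tested reached, there were 2 of the 28, Mki67 itself and Birc5. Birc5, the survivin subunit of the chromosomal passenger complex, was higher in cKO (0.942 ± 0.112 CPM in WT against 1.16 ± 0.206 CPM, SD, log2 fold change 0.30 ± 0.13). Ccnb2, a mitotic cyclin, had 0.32 ± 0.16 (SE). The summed level of the list was 85.0 to 92.5 CPM in WT and 76.5 to 96.0 CPM in cKO. Cycling oligodendrocyte precursors and microglia also express such genes. Of 10 precursor markers 4 were higher and 6 lower with 0 called, with a summed level of 545 to 668 CPM in WT and 548 to 593 CPM in cKO, and Tnr, an extracellular matrix gene of these cells, had a log2 fold change of -0.19 ± 0.06 (unadjusted p = 0.00808, adjusted p = 0.365 in edgeR). Of 10 microglia markers 3 were higher and 7 lower with 0 called, with 371 to 381 CPM in WT and 353 to 384 CPM in cKO. The part of these cells in the Mki67 values was not tested.

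**Figure D3:**
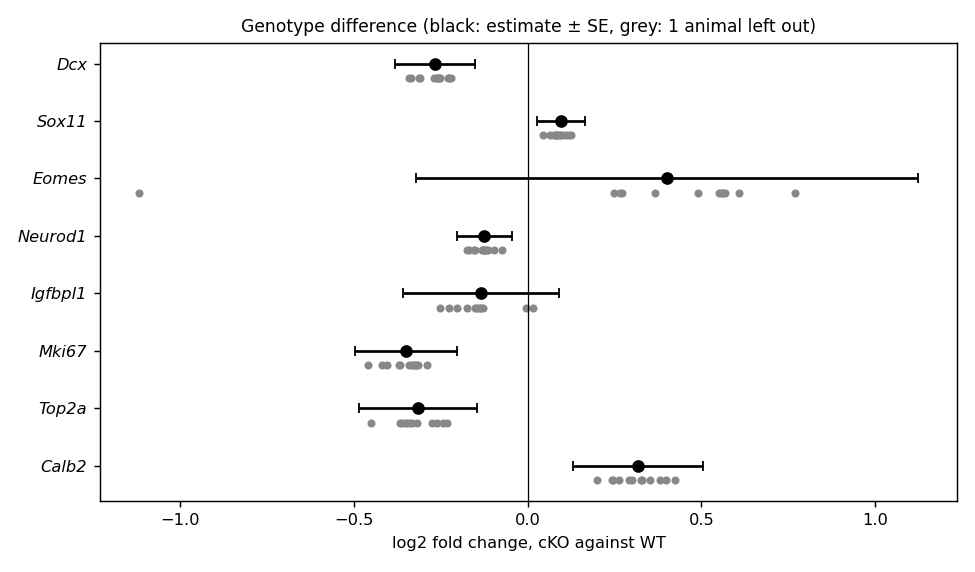
Log2 fold change of cKO against WT for the 8 genes (edgeR, n = 6 each), as the estimate with its SE from all 12 animals and, in grey below it, the estimates with 1 animal left out. Eomes turns from 0.40 to -1.12 when cKO 5 is left out, and the other genes keep their side of 0 except Igfbpl1, which lies at 0.01 without WT 1.

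Neuroblasts and young neurons were read through the other 5 genes. Dcx, the microtubule-binding doublecortin of migrating neuroblasts (chromosome X from 143855842 to 143933311, minus strand), had a lowest, median and highest level of 18.2 (WT 1), 24.7 and 27.8 CPM (WT 5) in WT. In cKO these were 16.6 (cKO 3), 18.7 and 24.2 CPM (cKO 5). All 6 cKO libraries lay below the WT median, and 4 WT libraries lay above every cKO library, while WT 1 lay among the lowest of all. The mean was 0.831 of the WT mean, with a log2 fold change of -0.27 ± 0.11 (SE) that did not pass (edgeR adjusted p = 0.496). Without the library labelled cKO 1 it was -0.25 ± 0.12 (edgeR adjusted p = 0.445).

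Neurod1, a proneural factor that commits progenitors to the granule fate and stays on in granule neurons (chromosome 2 from 79452521 to 79456751, minus strand), had a lowest, median and highest level of 19.1 (WT 5), 21.1 and 23.5 CPM (WT 6) in WT. In cKO these were 15.9 (cKO 4), 18.8 and 22.2 CPM (cKO 3). In all, 4 cKO libraries lay below every WT library, and cKO 1 and cKO 3 lay within the WT range. The log2 fold change was -0.12 ± 0.08 (SE, edgeR adjusted p = 0.661), and -0.17 ± 0.08 without cKO 1 (edgeR adjusted p = 0.424).

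Sox11, an SRY-box factor of committed neuroblasts that acts upstream of Dcx (chromosome 12 from 27334264 to 27342574, minus strand), had the smallest spread of the 8 genes in cKO. Its lowest, median and highest levels were 15.5 (WT 5), 18.9 and 21.3 CPM (WT 3) in WT. In cKO they were 18.6 (cKO 4), 20.0 and 21.9 CPM (cKO 3). WT 5 stood lowest, WT 1 also lay below every cKO library, and the log2 fold change was 0.10 ± 0.07 (SE, edgeR adjusted p = 0.706). It was 0.10 ± 0.07 without cKO 1 as well, 0.045 without WT 5 and 0.19 ± 0.07 without WT 2, WT 3 and cKO 4 (edgeR adjusted p = 0.587). Sox11 and Dcx therefore had opposite signs of the genotype difference, neither of which passed.

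Igfbpl1, a secreted protein of the insulin-like growth factor binding family found in neuroblasts (chromosome 4 from 45809468 to 45826923, minus strand), had a lowest, median and highest level of 0.743 (WT 3), 1.23 and 1.87 CPM (WT 1) in WT. In cKO these were 0.591 (cKO 4), 1.15 and 1.45 CPM (cKO 3). The lowest library of each genotype, WT 3 and cKO 4, was among the 3 lowest in choroid plexus markers, and the highest, WT 1, was the highest in those markers at 11654 CPM summed. WT 2, the second lowest in choroid plexus markers, was at 1.22 CPM and did not follow this order. The part of the dissection in the Igfbpl1 values was not tested. The log2 fold change was -0.13 ± 0.23 (SE, edgeR adjusted p = 0.899). It was -0.20 ± 0.24 without cKO 1 (edgeR adjusted p = 0.819), 0.014 without WT 1, -0.0033 without cKO 4, -0.23 without cKO 3 and -0.25 without WT 3.

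Calb2, the calcium buffer calretinin of postmitotic young granule neurons, is also made by interneurons, mossy cells and Cajal-Retzius cells (chromosome 8 from 110137502 to 110168210, minus strand). Its lowest, median and highest levels were 15 (WT 1), 24.3 and 33.9 CPM (WT 2) in WT. In cKO they were 22.9 (cKO 1), 30.4 and 38.2 CPM (cKO 5). WT 2 and cKO 5 were also the highest of their genotype in olfactory bulb markers, at 29.6 and 60.5 CPM summed. The part of olfactory tissue in the Calb2 values was not tested. Of the WT libraries 3 lay below every cKO library and 2 cKO libraries above every WT library. The log2 fold change was 0.32 ± 0.19 (SE), which did not pass (edgeR adjusted p = 0.628). It was 0.38 ± 0.19 without cKO 1 (edgeR adjusted p = 0.453) and 0.20 without WT 1.

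Markers of the other sources of Calb2 were as follows. Of 14 interneuron markers 13 were higher in cKO with 0 called and a median log2 fold change of 0.08 (9 of 14 and 0.03 without cKO 4), and their summed level was 707 to 826 CPM in WT and 705 to 907 CPM in cKO. The mean log2 level of these markers correlated with Calb2 over the 12 animals (r = 0.709, permutation p = 0.00977; rho = 0.776, permutation p = 0.00422), with 0.763 within WT and 0.812 within cKO, but the adjusted p over 96 such pairs was 0.187 for r and 0.202 for rho. Without the 2 animals farthest from the median of the markers r was 0.774. Of 6 mossy cell markers 4 were higher, with 0 called and a summed level of 19.2 to 21.4 CPM in WT and 19.6 to 23.7 CPM in cKO. Drd2, a dopamine receptor of mossy cells, had a log2 fold change of 0.34 ± 0.22 (SE). Its median was 2.51 CPM in either genotype, and its highest level, 5.64 CPM, was in the library labelled cKO 5. The difference of the Drd2 means was thus not seen in the medians. Of 7 Cajal-Retzius markers 5 were higher with 0 called, at 76.6 to 107 CPM in WT and 79.8 to 106 CPM in cKO summed, among them Nhlh2 at 0.32 ± 0.14 (unadjusted p = 0.0450, adjusted p = 0.518 in edgeR). Of 9 thalamus markers tested 7 were higher with 0 called, at 107 to 150 CPM in WT and 118 to 152 CPM in cKO. The part of these cells in the Calb2 values was not tested.

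The list of 17 young neuron genes had 10 members higher and 7 lower in cKO, 0 called, and a median log2 fold change of 0.01, which became 5 higher, 12 lower and -0.04 without cKO 4 and likewise without cKO 5. Cd24a, a surface glycoprotein of neuroblasts and ependymal cells, was at 9.19 ± 1.48 CPM in WT, against 11.1 ± 1.81 CPM in the cKO animals (SD, 6 per genotype), and its log2 fold change was 0.28 ± 0.13 (SE, edgeR adjusted p = 0.515). Ependymal markers were higher in 8 of 8 with 0 called, at 22.8 to 52.1 CPM summed in WT and 22.8 to 61.4 CPM in cKO, and their part in the Cd24a value was not tested. In the list of 7 subventricular neuroblast markers, cells of the other neurogenic zone of the adult brain, 5 were higher and 2 lower with 0 called, at 65.3 to 81.5 CPM in WT and 63.5 to 77.4 CPM in cKO.

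At the start of the lineage, 10 of 14 stem cell genes were higher in cKO, 0 were called and the median log2 fold change was 0.07. Vim, an intermediate filament of stem cells, astrocytes and vessel cells, was at 38.5 ± 4.50 CPM in WT, against 47.8 ± 5.14 CPM in the cKO animals (SD, 6 per genotype), and had 0.31 ± 0.09 (SE, edgeR adjusted p = 0.343). Gfap, a filament shared with mature astrocytes, had 0.14 ± 0.05, Hopx, a marker of quiescent stem cells, 0.16 ± 0.07, and Nes, the filament nestin, -0.16 ± 0.07. These 4 of the 14 had an unadjusted p under 0.05, a level that 9.54% of all genes tested reached, and none passed over all genes. Of 10 astrocyte markers, which share Gfap with this list, 7 were higher and 3 lower with 0 called, at 4727 to 5223 CPM summed in WT and 4458 to 5055 CPM in cKO. Of 10 endothelial markers 9 were higher and 1 lower with 0 called (5 and 5 without WT 2, WT 3 and cKO 4), at 240 to 272 CPM in WT and 252 to 287 CPM in cKO. The part of these cells in the Vim and Gfap values was not tested. At the end of the lineage, 15 of 16 mature granule neuron genes were lower in cKO, beside 46.6% of all genes tested, with 0 called and a median of -0.15. It was 14 of 16 with -0.08 without cKO 4, where the summed level was lowest, 13 of 16 with -0.07 without WT 2, WT 3 and cKO 4, and 16 of 16 with -0.22 without cKO 1. Dock10, a guanine nucleotide exchange factor, had -0.22 ± 0.10 (SE, unadjusted p = 0.0364), Stxbp6 -0.16 ± 0.08, C1ql3, a synaptic organizer, -0.13 ± 0.06 and Sema5a, a semaphorin, -0.23 ± 0.12. Of 9 pyramidal neuron markers 3 were higher and 6 lower with 0 called, at 833 to 942 CPM summed in WT and 782 to 942 CPM in cKO.

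No signalling gene of the neurogenic niche passed the test. Of 29 ligands, receptors and targets of the Wnt, BMP, Notch, hedgehog and growth factor pathways 28 were tested, 19 were higher and 9 lower, 0 were called and the median log2 fold change was 0.03. Fzd1, a Wnt receptor, had 0.15 ± 0.06 (SE, unadjusted p = 0.0277, adjusted p = 0.463 in edgeR). It was the only one of the 28 at an unadjusted p under 0.05, beside 9.54% of all genes tested. Jag1, a Notch ligand, had 0.13 ± 0.06, and the receptor genes Fgfr1 and Egfr had 0.08 ± 0.04 and -0.08 ± 0.05.

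**Figure D4:**
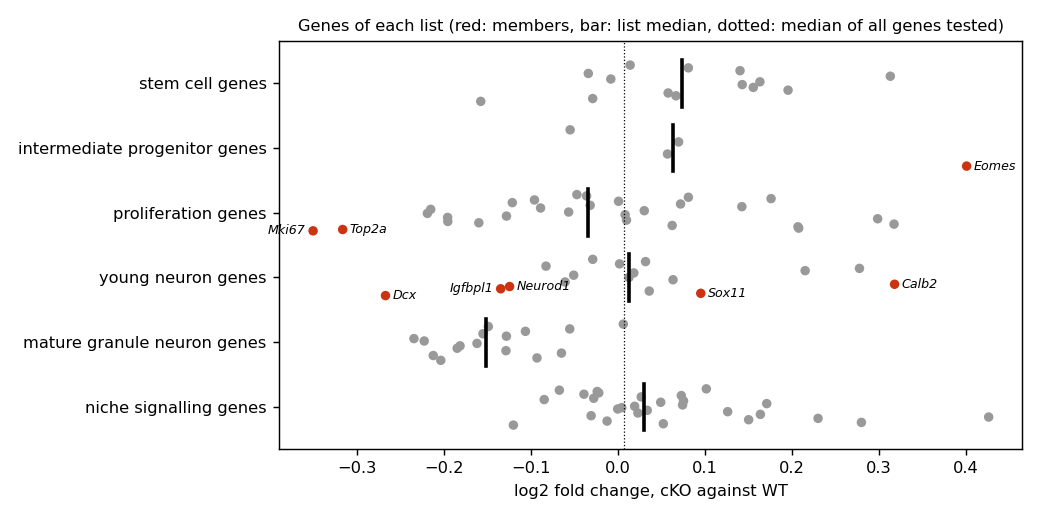
Log2 fold change of cKO against WT for each tested gene of 6 lists along the lineage and its niche, with the 8 genes in red, list medians as bars (from -0.15 for mature granule neuron genes to 0.07 for stem cell genes) and the median of all genes tested as a dotted line. No gene shown passed the test, and the position of Eomes on the right rests on the library labelled cKO 5.

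Covariation of the 8 genes from animal to animal was weak for most pairs. Over the 28 pairs, 0 correlations of log2 CPM passed an adjusted p of 0.05, and 1 pair had a permutation p under 0.05 for r before adjustment. That pair was Neurod1 and Top2a (r = 0.622, permutation p = 0.0309; rho = 0.594, permutation p = 0.0450; adjusted p = 0.427 for r and 0.486 for rho), with r of -0.504 within WT and 0.803 within cKO and 0.411 without the 2 animals farthest from the Neurod1 median. Mki67 and Top2a, both genes of cycling cells, had r = 0.576 (permutation p = 0.0535; rho = 0.434, permutation p = 0.161; adjusted p = 0.427 for r and 0.563 for rho), with 0.360 within WT and 0.406 within cKO, and 0.436 without the 2 animals farthest from the Mki67 median. Dcx and Sox11, both genes of neuroblasts, had a negative r of -0.498 (permutation p = 0.0907; rho = -0.315, permutation p = 0.321; adjusted p = 0.427 for r and 0.641 for rho), which was -0.0120 without the 2 farthest animals.

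**Figure D5:**
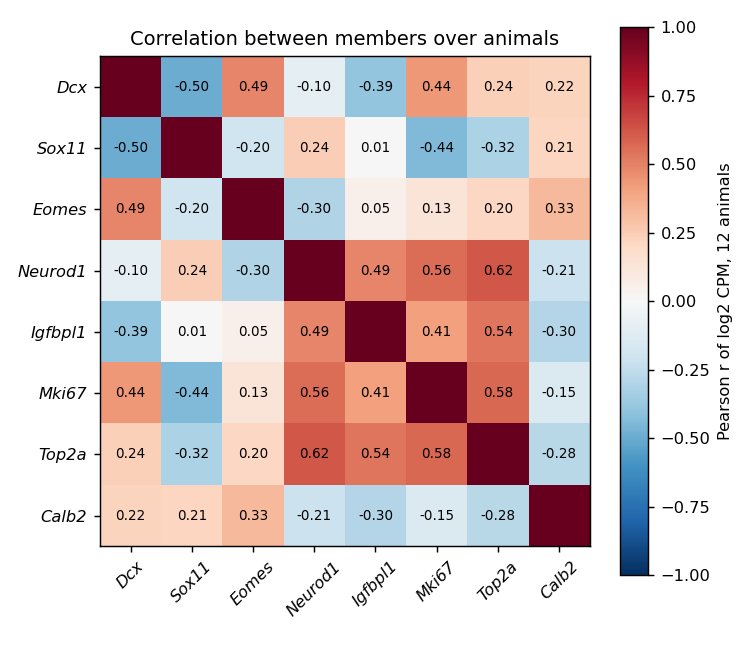
Pearson r of log2 CPM between each pair of the 8 genes over the 12 animals. Positive values link Mki67, Top2a, Neurod1 and Igfbpl1 (0.41 to 0.62), and Dcx has 0.49 with Eomes, 0.44 with Mki67 and -0.50 with Sox11. Without the 2 animals farthest from the median of 1 gene of the pair, pairs of the linked genes had r from -0.16 (Igfbpl1 and Mki67) to 0.44 (Mki67 and Top2a). None of the 28 pairs passed after adjustment.

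Neurod1, Mki67, Igfbpl1, Top2a and Sox11 shared their lowest cKO library, cKO 4. The summed level of the 16 mature granule neuron genes was also lowest there, at 728 CPM, while the other cKO libraries had 902 to 1173 CPM and WT had 987 to 1163 CPM. Over the 12 animals the mean log2 level of these granule genes correlated with Neurod1 (r = 0.850, permutation p = 0.000760; rho = 0.776, permutation p = 0.00451; adjusted p over 96 pairs of 0.0730 and 0.202), with 0.430 within WT, 0.936 within cKO and 0.622 without the 2 animals farthest from the median. With Mki67 it had r = 0.731 (permutation p = 0.00157; rho = 0.664, permutation p = 0.0224; adjusted p of 0.0754 and 0.358), with 0.850 within WT, 0.696 within cKO and 0.682 without the 2 farthest animals. With Igfbpl1 it had r = 0.734 (permutation p = 0.0117, adjusted p of 0.187), and 0.447 without the 2 farthest animals. With Top2a it had r = 0.641 (permutation p = 0.0223, adjusted p of 0.267), and 0.398 without the 2 farthest animals. Within WT these were 0.404 and -0.0881, and within cKO 0.945 and 0.645. With Sox11 it had r = 0.0747 (permutation p = 0.786, adjusted p of 0.898). With Dcx it had r = -0.101 (permutation p = 0.795; rho = 0.0559, permutation p = 0.869; adjusted p of 0.898 and 0.960). Of the 12 lists, Dcx had its highest absolute r with ependymal markers, r = -0.767 (permutation p = 0.00567; rho = -0.734, permutation p = 0.00840; adjusted p of 0.136 and 0.202), -0.660 within WT, -0.848 within cKO and -0.888 without the 2 farthest animals. Without cKO 4 the log2 fold changes were -0.07 for Neurod1, -0.29 for Mki67 and -0.23 for Top2a, and none passed. The part of the granule cell content of a dissection in these values was not tested.

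Among 15544 other tested genes with a mean of at least 1 CPM, the closest in pattern over the 12 animals were mostly not genes of the lineage. Dcx was followed by Zdhhc17, a palmitoyltransferase (r = 0.967), Gria3, an AMPA receptor subunit (r = 0.945), and Cacna2d3, an auxiliary calcium channel subunit (r = 0.941). Mki67 was followed by Vps13a (r = 0.970), Stxbp5l (r = 0.962) and Sfpq, a splicing factor (r = 0.962). Neurod1 was followed by Cyth4, Ccbe1 and Sipa1l3 (r = 0.880 to 0.885), Igfbpl1 by Pter, Prkcd, a protein kinase also on the thalamus list, and Ptma (r = 0.927 to 0.943). Sox11 was followed by St3gal3 (r = 0.90), Gm37464 and Med22, Top2a by 5430403G16Rik (r = 0.887), Mkx and Plekhh2, and Calb2 by Ifit1bl1 (r = 0.922), Trpc7 and Esyt3. These are the highest values out of all the genes compared, over 12 animals whose values share a library, and are given as a description.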

How the data were processed

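PolyA RNA of 12 hippocampi was sequenced, and the authors deposited an unscaled estimated count (expected count) per gene symbol and animal. Salmon 1.3.0 and the build GRCm38 are named in the submitters' processing notes. The sources used here give no annotation, strand setting or gene summing, so reads of overlapping genes (Eomes, Neurod1, Mki67 and Top2a each overlap annotated genes) cannot be separated. Counts were rounded and fitted with edgeR 4.0.16 (TMM, filterByExpr with a count minimum of 10, genotype only), with Benjamini-Hochberg adjustment and a threshold of 0.05. Correlations used log2 CPM (prior count 2) and 100000 two-sided permutations. Choroid plexus markers, which fell into separate clusters, were left out of them. Seeds were matched in the longest GENCODE 3′ UTR of each gene (at least 50 bases). The edgeR fit and the permutation p were tested on simulated data, and the other steps were not. Library totals lay between 42360624 and 51095816 counts, and p-values rest on the spread of 6 animals per genotype. The members and lists were chosen with earlier results of these data known. Named were the 8 members, up to 4 genes with the smallest p per stage or niche list, genes from the cell type lists by p or abundance, and the 3 closest genes per member. Single markers of the olfactory list were named after their values were seen.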

Additional observations from a re-analysis of the deposited data

Results flagged for a closer look

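Of 16 groups of 6 animals (8 genes in 2 genotypes), 2 held a library whose gap to its nearest neighbour exceeded Dixon's 95% critical value of 0.625 of the group's range, where chance flags about 1 in 20 groups. Eomes stood at 4.19 CPM in the library labelled cKO 5, with the next cKO library at 0.443 CPM and a gap of 0.932 of the range. Top2a stood at 1.73 CPM in WT 5, with the next WT library at 1.42 CPM and a gap of 0.660 of the range, a difference of 84 against 72 counts.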

How the results depend on the processing

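No member and no listed gene was called under any alternative run: RLE, upper-quartile or library-total scaling, DESeq2 1.42.0, limma-voom 3.58.1, no filter, a filter of at least 1 CPM in 6 libraries, each animal left out (0 to 0 calls), and the smaller sample sets. The calls over all genes were 2 with edgeR, 87 with DESeq2 and 0 with limma-voom, where 1843, 1958 and 1847 genes had an unadjusted p under 0.05. They were 1 with no filter or the 1 CPM filter, 0 without WT 2, WT 3 and cKO 4, 4 without cKO 1 and cKO 5, and 0 with 1 animal left out except for 6 without cKO 1. Eomes turned lower with limma-voom (log2 fold change -0.35), without cKO 5 (-1.12) and, chosen after its values were seen, without cKO 1 and cKO 5 (-0.95), and DESeq2 gave it no p. Igfbpl1 turned to 0.014 without WT 1. With 1 animal left out, Eomes ranged from -1.12 to 0.77 and Igfbpl1 from -0.25 to 0.014, and the other 6 members kept their direction (Sox11 0.045 to 0.13, Calb2 0.20 to 0.42). The members' median was -0.04 without cKO 4 and -0.24 without cKO 5. Correlations of members with marker lists passed in 0 of 96 pairs, but in 2 as deviations from the genotype means (Neurod1 with granule genes, 0.820, and Igfbpl1 with ependymal markers, 0.821), and in 0 to 2 with 1 animal left out (1 without WT 3, 2 without cKO 3); the cause was not tested. Pairs of members passed in 0 to 0. Animal numbers did not pair the samples (same-number correlations of deviations from -0.314 to 0.328, none the best match), and with a replicate block 0 members and 0 genes were called and Eomes had -0.23. Low counts limit Eomes (median 20 per library), Igfbpl1 (55), Top2a (59) and Mki67 (60).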
